A study of Mus musculus with 16 samples.

Results

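Chemokines are small proteins that guide leukocytes, and the genes followed here are the 9 chemokine ligand genes Ccl2, Ccl7, Ccl12, Ccl3, Ccl4, Cxcl2, Cxcl10, Cxcl12 and Cxcl16 and the receptor gene Ccr2. They were picked by gene name and make up 10 of the 55487 gene symbols counted. The products of Ccl2, Ccl7 and Ccl12 bind the receptor CCR2 on inflammatory monocytes, and this axis brings blood monocytes into injured nervous tissue. Resident microglia, arriving myeloid cells and cells of the vessel wall can all make chemokines after a lesion, at different times and under different inducers. Some ligands serve in steady state as well, with Cxcl12 as the best known case.

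The mice were 8-10 weeks old and carried either Ryk+/+,GFAPcreERT2 (called WT here) or Rykfl/fl,GFAPcreERT2 (called cKO), in which a GFAP-driven Cre given tamoxifen deletes part of Ryk in astrocytes. Spinal cord was taken from around a lesion of the dorsal columns at 1, 7 or 14 days, and the controls are called Sham in the labels and uninjured in the series design. Each of the 16 mice was dissociated alone, in solutions that held actinomycin D, and dead cells were removed before the single-cell libraries were made. A group is a genotype at a time point, with replicates 1 and 2 in each.

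Several conditions of the data bear on every result. Replicate 2 of WT at 1 day has 1 cell and was left out, so the WT group at 1 day is a single mouse and 15 mice were used. The 4 mice of replicate 1 at 1 and 7 days are shallow, with a median of 414 to 548 UMIs per cell beside 1040.5 to 3637 in the other 11 mice. These 4 mice also share 28 to 115 cell barcodes in each of their 6 pairs, while no other pair shares more than 4, and 335 of their 5237 cells (6.4%) carry such a barcode. For 6 mice, all of replicate 2, the deposited cell names give another condition than the sample titles, which were followed here. The condition column of the deposited cell table differs from the titles in 0 mice. Why the cell names differ was not tested. Of the injured mice at 1 day, only replicate 2 of cKO is not shallow, so it is the lone mouse at 1 day within batch 2 and without the shallow mice, and fits there assume that it varies like mice of the other groups. It holds 54.3% of all UMIs of Ccl2, 49.0% of those of Ccl7 and 52.1% of those of Ccl12. The median percent of mitochondrial UMIs per cell was 4.39 and 5.33 in WT and 1.36 and 6.31 in cKO without injury, 3.17 in WT and 3.14 and 4.84 in cKO at 1 day, 3.28, 2.27, 3.11 and 2.22 at 7 days and 2.01, 2.09, 1.89 and 1.97 at 14 days. It differs with time, and its part in the injury changes was not tested.

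Ryk itself was read in astrocytes (Clusters 2, 5 and 7) as UMIs per 1000000 UMIs of the same cells (CPM). WT mice had 123 and 54.0 CPM of Ryk uninjured, 101 at 1 day, 157 and 116 at 7 days, and 105 and 108 at 14 days. In cKO mice Ryk was at 66.1 and 85.1 CPM uninjured, 23.0 and 69.0 at 1 day, 90.1 and 119 at 7 days, and 121 and 123 at 14 days. The genotypes overlap, and the 23.0 CPM rests on 1 UMI. In Clusters 5 and 7 alone, since Cluster 2 has few astrocyte markers, Ryk ran from 70.1 to 170 CPM in WT mice and from 24.0 to 136 in cKO mice, which overlap as well. Reads from the 3′ end that lie outside the deleted part of Ryk check nothing about the deletion.

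The cluster names of the authors were compared with marker genes before chemokines were placed in them. Cluster 6 (microglia) holds 6 of 8 microglia markers among its 10 genes with the largest excess over the other clusters, and they sum to 14354 CPM. Cluster 10, also named microglia, has all 8 microglia markers at 6337 CPM but none of them among its first 10 genes, and its monocyte and macrophage markers sum to 3929 CPM. Cluster 12 (Immuno) has 4 antigen-presentation and 2 monocyte and macrophage markers among its first 10 genes, Cluster 16 (myeloid cells) has 6 neutrophil markers, and Cluster 1 (endothelial cells) has 4 endothelial markers. Cluster 9 (pericytes) has 5 pericyte markers and Cluster 14 (fibroblasts) has 4 fibroblast markers among the first 10. Cluster 2, named astrocytes, shows 0 astrocyte markers among its first 10 genes, and its oligodendrocyte markers (20945 CPM) exceed its astrocyte markers (7838 CPM). Most microglia lay in Cluster 6 in the uninjured and 7-day mice, in both replicates 1 at 1 day and in WT replicate 1 at 14 days. Cluster 10 held most microglia in cKO replicate 2 at 1 day, in WT replicate 2 at 14 days and in both cKO mice at 14 days.

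**Figure D1:**
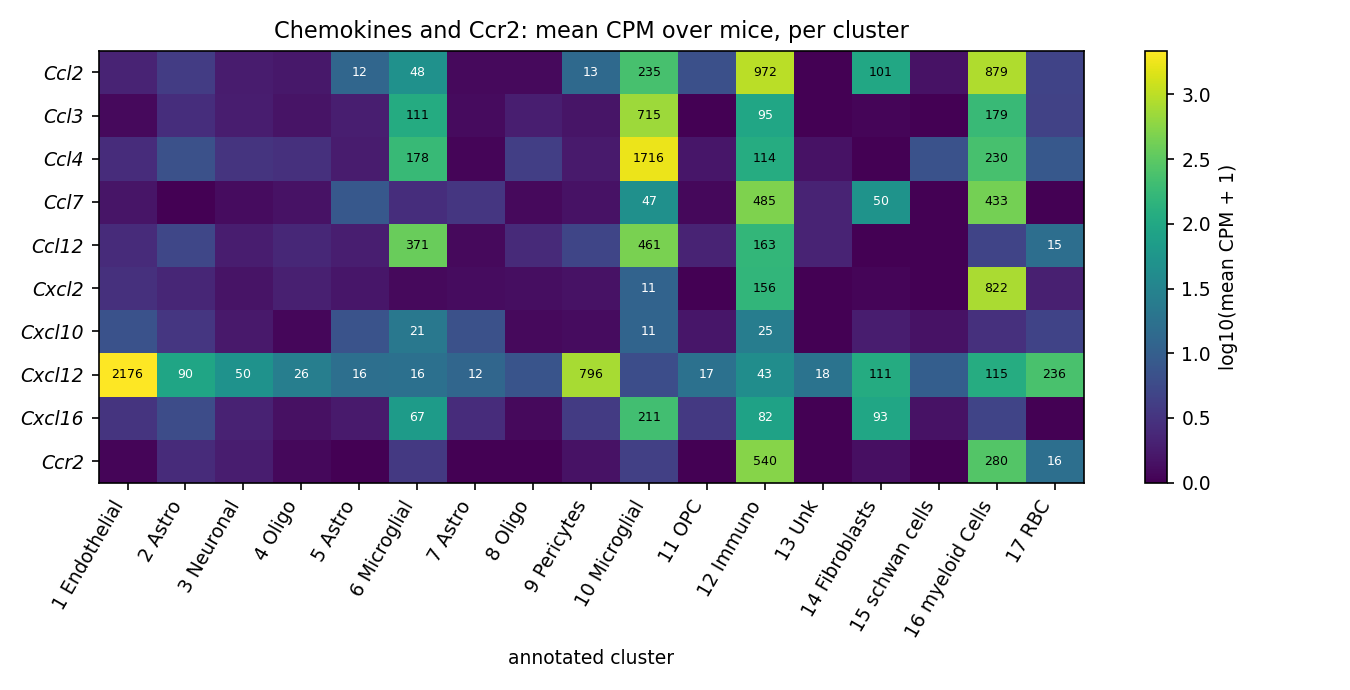
Mean level of each gene in each cluster over the mice with enough cells, in CPM (UMIs per 1000000 UMIs) on a log scale. Ccl3, Ccl4 and Cxcl16 are highest in Cluster 10, Cxcl12 in endothelial cells and Ccr2 in Immuno cells.

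Levels per cluster are means over mice in CPM and are read within a gene only, since 3′ counts of different genes are not on 1 scale. Ccl2, a monocyte attractant, averaged 972 CPM (SD 1338, 10 mice) in Immuno cells, 879 (SD 1415, 5 mice, 3 of them at 0) in myeloid cells, 235 (SD 419) in Cluster 10, 101 (SD 180.3) in fibroblasts and 48.1 (SD 97.6) in Cluster 6. Ccl2 did not differ beyond its spread between Immuno and myeloid cells (log2 ratio 1.59, SD 2.36, higher in 3 of 5 mice, with 50 CPM added). The 25 UMIs of Ccl2 in myeloid cells come from the 2 shallow mice at 1 day (7 UMIs in 12 cells and 18 in 10), the pooled level is 48.8 CPM, and the thinned share is 0. In myeloid cells of these 2 mice the 10 monocyte and macrophage markers, led by Lyz2, summed to 23580 and 21488 CPM (7 of 10 found in each, Ms4a7, Mrc1 and Cd163 at 0). In the other 3 mice they summed to 7974 (WT uninjured), 1512 (cKO at 1 day) and 6859 (cKO at 7 days), with 5, 4 and 6 of 10 found, and their part in the Ccl2 level was not tested. Ccl7, also a CCR2 ligand, averaged 485 CPM (SD 664) in Immuno cells, 433 (SD 969, 4 of 5 mice at 0) in myeloid cells, 50.3 (SD 66.3) in fibroblasts and 46.5 (SD 111) in Cluster 10. The myeloid level of Ccl7 is 12 UMIs in 2 cells of the shallow cKO mouse at 1 day, and pooled it is 23.4 CPM. The Ccl7 levels of Immuno and myeloid cells lay within their spread (log2 ratio 1.88, SD 2.77). Ccl12, the mouse CCR2 ligand with no human ortholog, was at 461 CPM (SD 732) in Cluster 10, 371 (SD 637) in Cluster 6 and 163 (SD 203) in Immuno cells. Its levels in Clusters 10 and 6 did not differ beyond the spread (log2 ratio 0.19, SD 1.10, higher in Cluster 10 in 7 of 14 mice).

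Ccl3, which codes for a ligand that draws monocytes and T cells, averaged 715 CPM (SD 628) in Cluster 10, 179 (SD 177) in myeloid cells, 111 (SD 115) in Cluster 6 and 94.6 (SD 90.5) in Immuno cells. Ccl3 was higher in Cluster 10 than in myeloid cells in 5 of 5 mice (log2 ratio 2.19, SD 0.89), while myeloid cells and Cluster 6 did not differ (−0.03, SD 1.00). Ccl4, whose product draws similar cells, averaged 1716 CPM (SD 2501) in Cluster 10, 230.2 (SD 407) in myeloid cells, 178 (SD 163) in Cluster 6 and 114 (SD 79.2) in Immuno cells. Cluster 10 exceeded myeloid cells for Ccl4 in 5 of 5 mice (log2 ratio 3.61, SD 1.82).

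Cxcl2, a neutrophil attractant, averaged 822 CPM (SD 619) in myeloid cells and 156 (SD 175) in Immuno cells, with myeloid cells higher in 4 of 5 mice (log2 ratio 1.93, SD 1.49). Cxcl10, an interferon-induced ligand of CXCR3 on T cells, averaged 24.9 CPM (SD 44.3) in Immuno cells, 20.6 (SD 40.1) in Cluster 6 and 10.9 (SD 19.3) in Cluster 10. Immuno cells and Cluster 6 did not differ for Cxcl10 (log2 ratio 0.21, SD 0.92). Cxcl12, the CXCR4 ligand that retains leukocytes and guides progenitors, was at 2176 CPM (SD 591) in endothelial cells and 796 (SD 241) in pericytes, and higher in endothelial cells in 15 of 15 mice (log2 ratio 1.40, SD 0.42). Cxcl16, a membrane-bound CXCR6 ligand, was at 211 CPM (SD 98.8) in Cluster 10, 93.2 (SD 52.5) in fibroblasts, 82.0 (SD 65.1) in Immuno cells and 67.0 (SD 33.4) in Cluster 6. Cluster 10 exceeded fibroblasts for Cxcl16 in 7 of 9 mice, within the spread (log2 ratio 0.84, SD 0.98). Ccr2, the receptor of the monocyte ligands, was at 540.0 CPM (SD 264) in Immuno cells and 279.9 (SD 374) in myeloid cells, which differ within the spread (log2 ratio 1.98, SD 2.37). Of the myeloid level, 4 UMIs each in the 2 shallow mice at 1 day make up most, and the pooled level is 25.4 CPM.

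Over all cells, Immuno cells held 50.6% of the 1208 UMIs of Ccl2, 68.8% of the 494 of Ccl7 and 90.2% of the 752 of Ccr2. Cluster 10 held 78.6% of the 2259 UMIs of Ccl3, 78.0% of the 4136 of Ccl4 and 58.3% of the 1434 of Cxcl16. The 1705 UMIs of Ccl12 were spread over Cluster 6 (45.7%) and Cluster 10 (44.2%), and the 353 of Cxcl10 over Cluster 6 (32.0%) and endothelial cells (27.8%). Endothelial cells held 87.5% of the 29142 UMIs of Cxcl12, and pericytes 8.55%. Myeloid cells held 71.7% of the 828 UMIs of Cxcl2, of which 62.0% came from replicate 2 of cKO at 7 days.

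The share of cells in which a gene is found rises with depth, so it was also taken after thinning cells to 1000 UMIs and is set beside neurons (2486 cells, median 1848 UMIs). Cells under 1000 UMIs cannot be thinned and are left out of the thinned shares, which cover 1978 of 4201 endothelial cells, 145 of 288 Immuno cells, 578 of 1316 cells of Cluster 6, 470 of 812 of Cluster 10 and 1710 of the neurons. Thinned shares thus describe a deeper set of cells and are not read against the unthinned ones. Ccl2 was found in 28.1% of Immuno cells (median 1015.5 UMIs; 8.97% thinned), 7.64% of Cluster 10 (3.83%) and 4.26% of Cluster 6 (3.29%), beside 0.442% of neurons (0.117%). Ccl7 was found in 15.3% of Immuno cells (6.90% thinned) and 0.201% of neurons (0.175%). For Ccl12 the shares were 15.4% of Cluster 10 (10.9% thinned), 13.6% of Cluster 6 (7.61%) and 0.442% of neurons (0.0585%). Cluster 10 cells had Ccl3 in 28.0% (17.9% thinned) and Ccl4 in 26.6% (18.7%), and neurons in 0.402% (0.234%) and 1.05% (0.526%). Cxcl2 was found in 33.6% of myeloid cells (26.1% thinned) and 0.322% of neurons (0 thinned), and Cxcl10 in 1.35% of Cluster 10 (0.851%) and 0.282% of neurons (0.292%). The share for Cxcl12 was 55.3% of endothelial cells (64.9% thinned), 32.8% of pericytes (24.8%), 8.05% of neurons (3.57%) and 3.56% of Cluster 4 oligodendrocytes (2.98%). Cxcl16 was found in 33.4% of Cluster 10 (18.1% thinned), 14.4% of Cluster 6 (5.02%) and 0.603% of neurons (0.234%). Ccr2 was found in 29.9% of Immuno cells (26.9% thinned), 9.24% of myeloid cells (1.14%) and 0.362% of neurons (0 thinned). For myeloid cells the number covered by thinning is not given here, and most cells of the shallow mice at 1 day are left out of it. The thinned myeloid share of Ccr2 therefore says little about those mice.

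**Figure D2:**
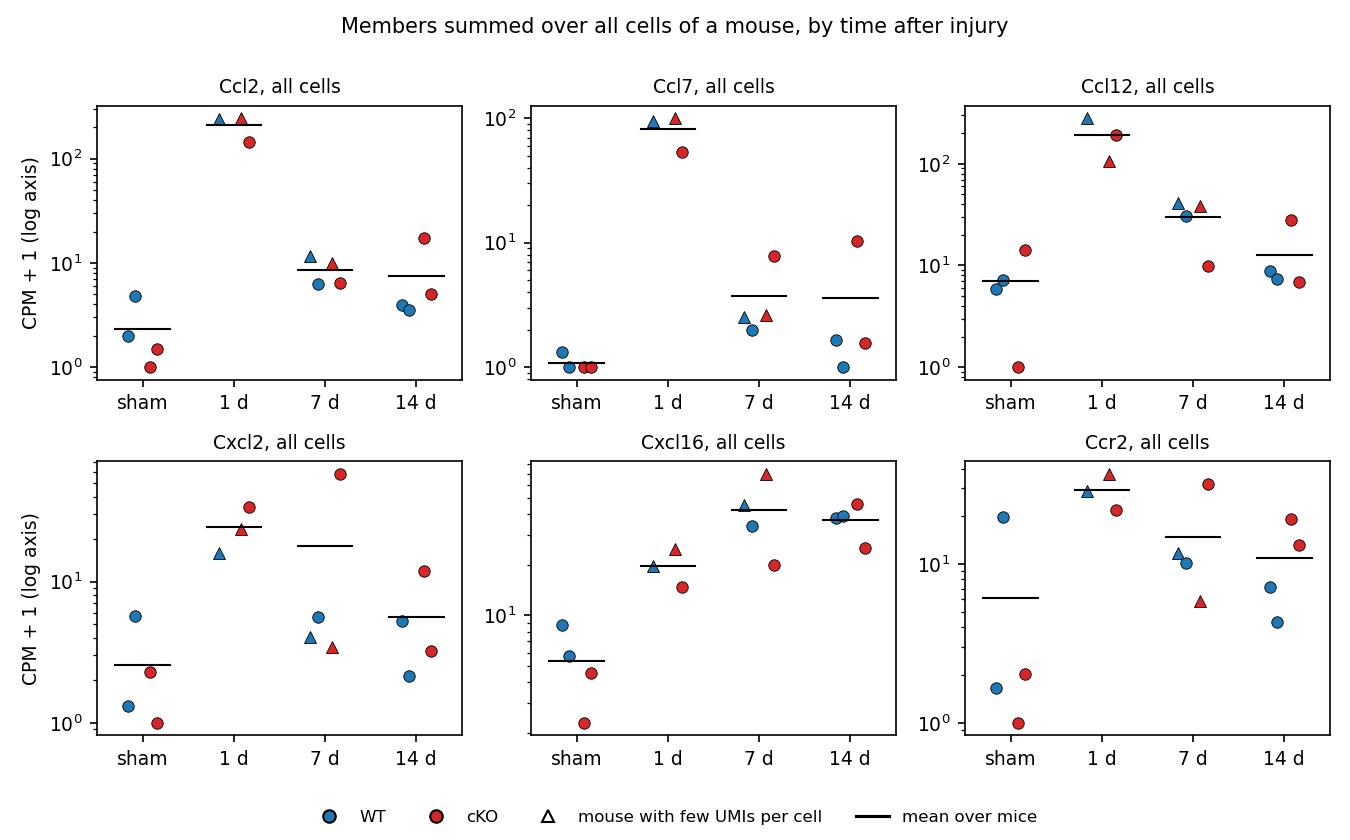
Level in CPM (1 added, log scale) of 6 genes in all cells of each mouse by time point. Each point is 1 mouse, triangles are the 4 shallow mice and bars are means; Ccl2, Ccl7 and Ccl12 are highest at 1 day.

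In all cells of a mouse, Ccl2 was at 0.976 and 3.78 CPM in WT and 0 and 0.509 in cKO without injury, and at 239 CPM in WT and 243 and 143 in cKO at 1 day. At 7 days Ccl2 was at 10.8 and 5.28 CPM in WT and 8.90 and 5.44 in cKO, and at 14 days at 2.93 and 2.50 in WT and 16.3 and 3.99 in cKO. Every mouse at 1 and 7 days lay above every uninjured mouse, and at 14 days the groups overlap. Here and below, overlap is read on CPM without the scaling factors (TMM) of the fit. In all cells these were 0.732 and 0.740 in WT and cKO replicates 2 uninjured and 0.922 to 1.13 in the other mice. On the scaled levels Ccl2 at 7 days, Ccl3 at 14 days and Ccr2 at 1 day overlap the uninjured mice. The share of all genes whose groups separate is not given here. Summed over mice, 12 UMIs without injury against 946 at 1 day give a 107.7-fold higher level of Ccl2 (95% interval 61.4 to 209), and the fold was 3.94 (2.14 to 7.93) at 7 days and 4.296 (2.40 to 8.48) at 14 days. Without replicate 2 of WT uninjured these folds of Ccl2 are 237, 8.66 and 9.45, and without replicate 1 of cKO at 14 days the last is 2.07. These intervals, and floors of 3 counts used where a group has 0, cover counting error only. For a sum over all cells, fewer cells and less RNA per cell cannot be told apart. In an edgeR quasi-likelihood fit of summed counts, Ccl2 rose at 1 day by 7.54 on the log2 scale (SE 0.70, p 8.03e-08, Benjamini-Hochberg adjusted p 0.000755), with 3 of 3 mice above the 4 uninjured mice. The adjusted p of Ccl2 ran from 4.83e-48 to 1.00 over the alternatives. Within batch 1 the rise of Ccl2 was 8.18 (adjusted p 0.00289) and within batch 2, with 1 mouse at 1 day, it was 5.65. It was not called without the 4 shallow mice (8.40, adjusted p 0.175, also 1 mouse at 1 day), with the conditions of the cell names (6.34, 1.00) or in WT mice alone (6.41, 0.0553).

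Ccl7 had 1 UMI in the 4 uninjured mice (0.325 CPM in WT replicate 1, 0 in the others) and was at 93.2 CPM in WT and 99.0 and 52.6 in cKO at 1 day. At 7 days Ccl7 was at 1.54 and 0.989 CPM in WT and 1.62 and 6.88 in cKO, and at 14 days at 0.651 and 0 in WT and 9.30 and 0.551 in cKO. The mice at 1 and 7 days lay above all uninjured mice. Its 358 UMIs at 1 day against 1 give a ratio of 489 with an exact interval from 87.2 to 19371. Without replicate 2 of cKO at 1 day the ratio for Ccl7 is 765, and without replicate 1 of WT uninjured only a bound of at least 99.8-fold is left. Ccl7 rose at 1 day in the fit (log2 9.77, SE 1.34, p 1.06e-05, edgeR adjusted p 0.0399, 3 of 3 mice higher), and with a cKO uninjured group at 0 this fitted fold is no bound. The adjusted p of Ccl7 ran from 3.88e-34 to 1.00 over the alternatives, with 0.0120 within batch 1. It was not called within batch 2 (0.0606) or without the shallow mice (0.846), each with 1 mouse at 1 day, nor with the animal number series (0.0596), with the cell names (1.00), in WT alone (0.8287) or in cKO alone (0.394). Leaving out single mice, Ccl7 passed an edgeR adjusted p of 0.05 in 4 of 15 fits, while its log2 value ran from 9.53 to 11.2.

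Without injury, Ccl12 was at 4.88 and 6.14 CPM in WT and 0 and 13.2 in cKO, and at 1 day at 279.7 in WT and 106 and 193 in cKO. At 7 days Ccl12 was at 40.0 and 29.7 CPM in WT and 37.2 and 8.99 in cKO, and at 14 days at 7.81 and 6.37 in WT and 26.8 and 5.92 in cKO. All mice at 1 day lay above the uninjured mice, and at 7 and 14 days they overlap. The summed level of Ccl12 was 28.1-fold higher at 1 day (54 against 1109 UMIs, interval 21.3 to 37.6). Its fit gave log2 4.66 (SE 0.77, edgeR adjusted p 0.0927, range over alternatives 7.45e-30 to 1.00), and DESeq2 gave an adjusted p of 5.30e-07.

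Ccl3 was at 3.25 and 7.08 CPM in WT and 0 and 32.6 in cKO without injury, and at 91.4 in WT and 111 and 46.9 in cKO at 1 day. At 7 days Ccl3 was at 55.4, 28.7, 100.3 and 17.6 CPM, and at 14 days at 78.4, 51.9, 42.5 and 61.8 (WT replicates 1 and 2, then cKO). Only replicate 2 of cKO was high among uninjured mice, and in CPM without the scaling factors the mice at 1 and 14 days lay above it. The summed Ccl3 level was 5.20-fold higher at 1 day (interval 4.11 to 6.65), 2.60-fold at 7 days and 4.94-fold at 14 days. Replicate 2 of cKO holds 64 of the 89 uninjured UMIs of Ccl3, and without it the folds are 13.9, 6.96 and 13.2. Without replicate 2 of cKO at 1 day the fold of Ccl3 there is 9.11, and without replicate 2 of cKO at 7 days it is 4.47. Ccl4 was at 2.60 and 42.0 CPM in WT and 1.29 and 122 in cKO without injury, so both replicates 2 were high. At 1 day Ccl4 was at 117 CPM in WT and 114 and 145 in cKO, at 7 days at 69.3, 46.5, 125 and 31.4, and at 14 days at 194, 91.8, 66.2 and 72.8, which overlaps the uninjured mice at each time point. The summed Ccl4 level was 3.28-fold, 1.05-fold and 2.17-fold that of uninjured mice at 1, 7 and 14 days. Without replicate 2 of cKO, with 239 of the 337 uninjured UMIs of Ccl4, the folds are 8.47, 2.73 and 5.61, and without replicate 1 of WT they are 2.05, 0.661 and 1.36. At 7 days the Ccl4 fold is 1.63 without replicate 2 of cKO, 0.870 without replicate 1 of cKO and 0.954 without replicate 1 of cKO uninjured, so its direction turns. Neither passed the test at 1 day (edgeR log2 2.75, adjusted p 0.566 for Ccl3, range 4.11e-10 to 1.00; 1.29 and 0.8292 for Ccl4, range 0.00794 to 1.00).

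Cxcl2 was at 0.325 and 4.72 CPM in WT and 1.29 and 0 in cKO without injury, and at 14.9 in WT and 22.5 and 32.8 in cKO at 1 day, all above the uninjured mice. At 7 days Cxcl2 was at 3.08, 4.62, 2.43 and 56.9 CPM and at 14 days at 4.23, 1.14, 10.8 and 2.20, where the groups overlap and replicate 2 of cKO at 7 days is far above the rest. The summed Cxcl2 level was 19.8-fold higher at 1 day (interval 11.1 to 39.1), or 87.1-fold without replicate 2 of WT uninjured and 12.6-fold without replicate 2 of cKO at 1 day, and the fit gave log2 4.11 with an adjusted p of 0.634 (edgeR, range 5.87e-07 to 1.00). Cxcl10 was at 0.325, 0, 6.46 and 0.509 CPM without injury, at 5.59, 4.50 and 12.6 at 1 day, at 9.24, 16.8, 22.6 and 1.44 at 7 days and at 0.651, 14.7, 6.86 and 1.10 at 14 days. Its groups overlap at every time point, with 7 UMIs in all uninjured mice and a summed fold of 12.5 (5.73 to 32.3) at 1 day, which is 39.4 without replicate 1 of cKO uninjured and 5.65 without replicate 2 of cKO at 1 day. For Cxcl10 at 1 day the fit gave log2 3.13 with an adjusted p of 0.763 (edgeR, range 0.0382 to 1.00).

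Cxcl12 was at 664 and 446 CPM in WT and 583 and 633 in cKO without injury, and at 606 in WT and 559 and 275 in cKO at 1 day. At 7 days Cxcl12 was at 517, 746, 304 and 541 CPM and at 14 days at 763, 551, 458 and 614, overlapping the uninjured mice throughout. The summed Cxcl12 level was 0.574-fold, 0.955-fold and 0.967-fold that of uninjured mice at 1, 7 and 14 days, and without replicate 2 of cKO the Cxcl12 level at 1 day is 0.983-fold. Without replicate 1 of WT uninjured the later ratios of Cxcl12 turn to 1.04 and 1.05, without replicate 2 of cKO at 7 days to 1.02 there, and without replicate 1 of cKO at 14 days to 1.03. Its fit gave log2 −0.45 at 1 day (edgeR adjusted p 0.839, range 0.0755 to 1.00).

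Cxcl16 was at 7.81 and 4.72 CPM in WT and 1.29 and 3.57 in cKO without injury, and at 18.6 in WT and 24.0 and 13.7 in cKO at 1 day. It was at 44.6, 33.3, 68.7 and 18.9 CPM at 7 days and at 37.1, 37.9, 45.0 and 24.2 at 14 days. Every injured mouse lay above every uninjured mouse for Cxcl16. The summed level was 2.89-fold (1.98 to 4.28), 5.22-fold (3.79 to 7.36) and 6.75-fold (4.95 to 9.43) that of uninjured mice at 1, 7 and 14 days. At 7 days the fold of Cxcl16 is 8.25 without replicate 2 of cKO. In the edgeR fit Cxcl16 did not pass at 7 days (log2 2.99, SE 0.49, adjusted p 0.0607, range 1.33e-10 to 1.00) or at 14 days (log2 2.84, SE 0.48, adjusted p 0.0612, range 4.81e-10 to 0.720), with 4 of 4 mice higher at each. With a replicate block it passed at both (adjusted p 0.0359 and 0.0376), and DESeq2 gave 2.58e-05 and 8.59e-05. Within batch 1 the values for Cxcl16 at 7 and 14 days were 3.35 (adjusted p 0.0218) and 2.89 (0.0340), and within batch 2 they were 2.05 (0.0290) and 2.29 (0.0142).

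Ccr2 was at 0.650 and 18.9 CPM in WT and 0 and 1.02 in cKO without injury, with replicate 2 of WT far above the others. At 1 day Ccr2 was at 28.0 CPM in WT and 36.0 and 20.9 in cKO, all above the uninjured mice without the scaling factors. At 7 days it was at 10.8, 9.23, 4.85 and 30.7 CPM, and at 14 days at 6.18, 3.30, 18.1 and 12.1. The summed Ccr2 level was 4.19-fold, 4.11-fold and 1.79-fold that of uninjured mice. Replicate 2 of WT holds 40 of the 44 uninjured UMIs of Ccr2, and without it the folds are 33.8, 33.2 and 14.4. Without replicate 1 of WT uninjured they are 2.69, 2.64 and 1.15, and without replicate 2 of cKO at 7 days the fold there is 1.50. The fit at 1 day gave log2 3.02 (edgeR adjusted p 0.666, range 2.80e-05 to 1.00).

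All 10 members passed the low-count filter in all cells. At 1 day 2 of the 10 (Ccl2 and Ccl7) were called by edgeR beside 5 of 18814 genes (0.0266%), 7 members had an unadjusted p under 0.05 beside 1228 genes, and DESeq2 called 3 members and 56 genes. Msr1 (log2 6.13, adjusted p 0.0310) and Tubb6 (3.45, 0.0310) were also called, and are named here after their values were seen. At 7 days edgeR called 0 members beside 0% of genes, with an unadjusted p under 0.05 for 7 members and 1764 genes, and DESeq2 called 1 member and 186 genes. At 14 days it called 0 members beside 0% of genes, with 3 and 1853 unadjusted and 1 and 160 by DESeq2.

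Beside these sums, the 10 monocyte and macrophage markers summed to 329 and 926 CPM in WT and 203 and 280.1 in cKO without injury, and to 1854 in WT and 1677 and 935 in cKO at 1 day. At 7 days the markers summed to 1429, 965, 2512 and 1215 CPM and at 14 days to 1401, 554, 1012 and 811. All 10 had UMIs in every mouse at 1 day with Fn1 the most abundant, while in uninjured mice Plac8 was at 0 in WT replicate 1, Ms4a7 and Cd163 in both cKO mice and Ly6c2 in cKO replicate 1. The 8 neutrophil markers summed to 78.4 and 9189 CPM in WT and 611 and 20.9 in cKO without injury, to 832, 442 and 1515 at 1 day, and to 7357 in replicate 2 of cKO at 7 days, led by S100a9. Whether the Ccl2, Ccl7 and Cxcl2 values follow the number of myeloid cells was not tested.

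By time point, the UMIs lay in these cells, at 7 and 14 days often in single ones. At 1 day Immuno cells held 54.1% of the 946 UMIs of Ccl2 and 76.5% of the 358 of Ccl7, and Cluster 10 held 31.0% of those of Ccl2. Fibroblasts held 82.4% of the 68 UMIs of Ccl7 at 7 days, of which 55 were in replicate 2 of cKO (55.3 CPM, 72.7% in 1 cell). Immuno cells held 92.5% of the 67 UMIs of Ccl7 at 14 days, 58 of them in 1 cell of replicate 1 of cKO. Cxcl2 at 1 day came from Immuno (46.0%) and myeloid cells (45.4%), and at 7 days myeloid cells held 92.1% of its 532 UMIs. Of the UMIs of Cxcl10, Cluster 5 astrocytes held 54.7% of 64 at 1 day, Cluster 6 held 70.4% of 98 at 7 days and endothelial cells 44.0% of 184 at 14 days. Single cells held 79.5% of the 39 UMIs of Cxcl10 in astrocytes of replicate 2 of cKO at 1 day, 92.9% of the 42 in Cluster 6 of replicate 2 of WT at 7 days and 89.2% of the 74 in endothelial cells of replicate 2 of WT at 14 days.

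**Figure D3:**
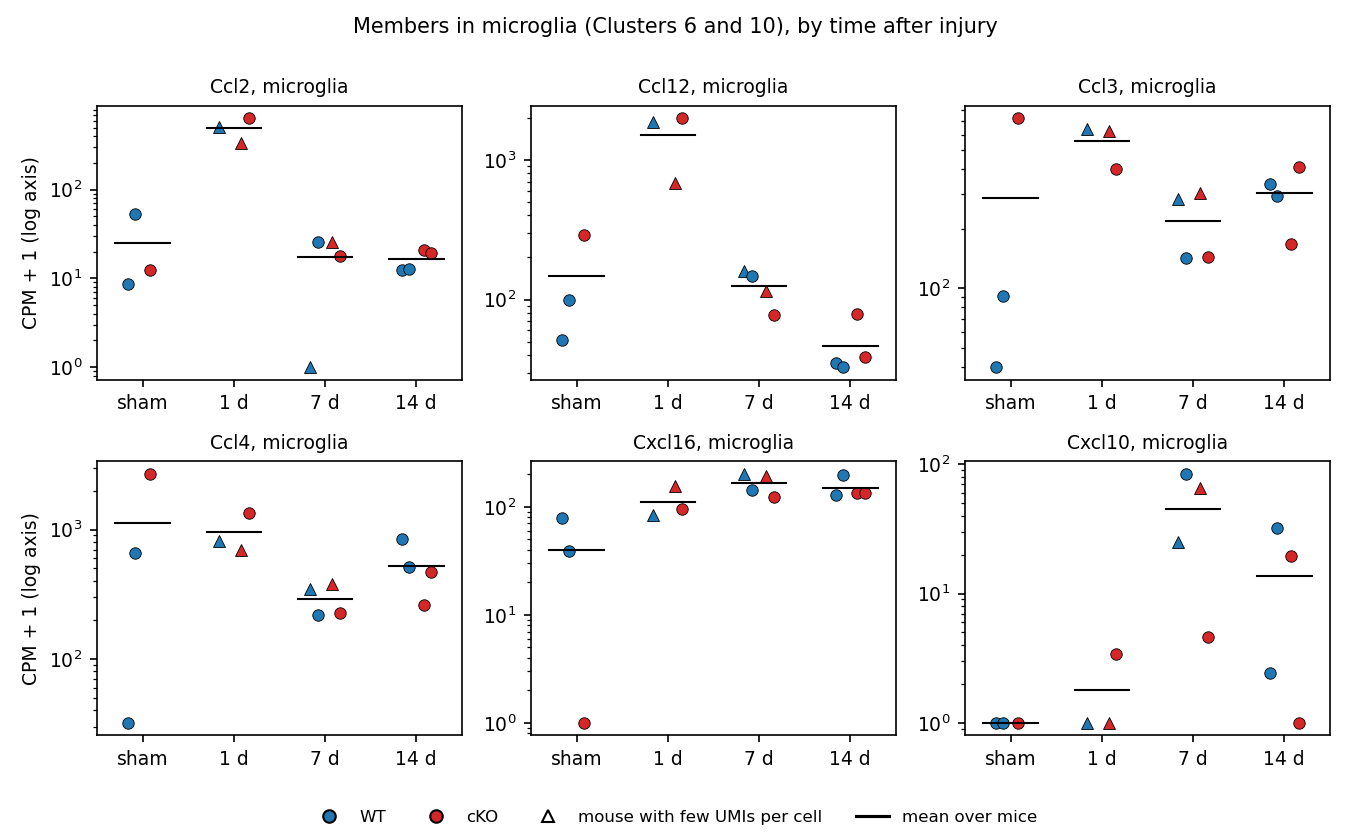
Level in CPM (1 added, log scale) of 6 genes in microglia (Clusters 6 and 10) of each mouse by time point. Each point is 1 mouse, triangles are the shallow mice and bars are means; Ccl2 and Ccl12 are highest at 1 day, and Cxcl16 is above the uninjured mice at all 3 time points.

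Microglia (Clusters 6 and 10) could be summed in 14 mice, since replicate 1 of cKO uninjured has 6 such cells, and the cKO uninjured group is therefore 1 mouse. In these cells 8 members passed the low-count filter, and Cxcl2 and Ccr2 did not. Ccl2 was at 7.76 and 52.6 CPM in WT and 11.5 in cKO without injury, and at 513 in WT and 338 and 637 in cKO at 1 day, all above the uninjured mice. At 7 days microglial Ccl2 was at 0, 24.5, 24.7 and 16.7 CPM and at 14 days at 11.4, 11.9, 19.8 and 18.3, within the range of the uninjured mice or below it. The summed level was 27.3-fold higher at 1 day (10 against 333 UMIs, interval 14.7 to 57.4), or 65.6-fold without replicate 2 and 15.7-fold without replicate 1 of WT uninjured. Cluster 10 held 293 of these UMIs at 1 day and Cluster 6 held 40, against 5 and 5 without injury. Uninjured microglia lie mostly in Cluster 6 and those of replicate 2 of cKO at 1 day mostly in Cluster 10. The part of this shift in the Ccl2 level was not tested. Microglial Ccl2 rose at 1 day (log2 4.79, SE 0.70, edgeR adjusted p 0.00511, 3 of 3 mice higher, range over alternatives 1.32e-12 to 0.399). Within batch 1, where WT replicate 1 is the only uninjured mouse with enough microglia, it was 5.61, and within batch 2, with 1 mouse at 1 day, 4.17. Without the shallow mice, again with 1 mouse at 1 day, microglial Ccl2 was not called (5.86, adjusted p 0.189). The call of Ccl2 was also lost with the cell names (3.77, 0.312), in cKO alone (5.40, 0.380) and without replicate 1 of WT at 1 day (5.43, 0.399).

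Microglial Ccl12 was at 50.5 and 97.6 CPM in WT and 288 in cKO without injury, and at 1871 in WT and 677 and 1987 in cKO at 1 day, all above the uninjured mice. At 7 days it was at 160.4, 147, 114 and 76.6 CPM, and at 14 days at 34.3, 31.8, 78.0 and 37.6, which overlaps the uninjured mice. Summed, Ccl12 was 16.4-fold higher at 1 day (51 against 1022 UMIs, interval 12.4 to 22.2) and at 14 days it was 0.455 of the uninjured level (0.335 to 0.629). Without replicate 2 of cKO uninjured (288 CPM) these are 26.4 and 0.731, and without replicate 1 of WT uninjured 10.2 and 0.281. Ccl12 rose at 1 day (log2 3.38, SE 0.52, edgeR adjusted p 0.00648, 3 of 3 mice higher, range 8.07e-12 to 0.647) and did not pass at 14 days (−1.70, adjusted p 0.148, range 0.00120 to 0.867). Within batch 1, against 1 uninjured mouse, the Ccl12 value at 1 day was 4.53, and within batch 2, with 1 mouse at 1 day, 3.52. It was not called without the shallow mice (2.88, adjusted p 0.647, 1 mouse at 1 day). Ccl12 was also not called with the cell names (3.90, adjusted p 0.262), in cKO alone (2.23, 0.562) or without replicate 1 of WT at 1 day (2.25, 0.523).

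Microglial Cxcl16 was at 77.6 and 37.6 CPM in WT and 0 in cKO without injury, and at 83.2 in WT and 154 and 94.4 in cKO at 1 day. It was at 200.5, 142, 193 and 123 CPM at 7 days and at 127, 197, 134 and 133 at 14 days, with every injured mouse above every uninjured mouse. The closest are WT at 1 day (83.2 CPM, scaling factor 1.11) and WT replicate 1 uninjured (77.6 CPM, factor 1.02). Their order on the scaled levels is unclear. Summed, Cxcl16 was 2.83-fold (25 against 293 UMIs, interval 1.88 to 4.45) and 2.91-fold (749 UMIs, 1.96 to 4.53) higher at 7 and 14 days, or 6.52-fold and 6.70-fold without replicate 1 of WT uninjured, which holds 20 of the 25 uninjured UMIs of Cxcl16. It rose at 7 days (edgeR adjusted p 0.0287, 4 of 4 mice higher, range 0.000153 to 0.854) and at 14 days (0.0205, 4 of 4 mice, range 0.000114 to 0.630). The fitted log2 values of 5.45 and 5.35 rest on a cKO uninjured group of 1 mouse at 0 and are no bound, and in WT mice alone they were 1.38 (adjusted p 0.622) and 1.48 (0.231). Without that mouse Cxcl16 was at 1.37 (adjusted p 0.617) and 1.48 (0.236), with the cell names at 1.20 (0.854) and 1.51 (0.438), and in cKO alone it was not called either. At 7 days its call was also lost with DESeq2, without the shallow mice and without 3 other single mice, and at 14 days without 2 other single mice. In neither cluster alone was Cxcl16 called at 7 days (adjusted p 0.589 in Cluster 6 and 0.0769 in Cluster 10) or 14 days (0.610 and 0.147). Uninjured microglia lie mostly in Cluster 6 and those of 3 of 4 mice at 14 days mostly in Cluster 10, where Cxcl16 is higher, and the part of this shift was not tested. Within batch 1, against 1 uninjured mouse, the values were 1.46 and 0.94, and within batch 2 2.39 (0.0272) and 2.75 (0.00522).

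Microglial Ccl3 was at 38.8 and 90.1 CPM in WT and 725 in cKO without injury, at 638, 626 and 399 at 1 day, at 281, 142, 304 and 142 at 7 days and at 336, 293, 167 and 409 at 14 days, and the groups overlap. Ccl4 was at 31.1 and 654 CPM in WT and 2693 in cKO without injury, at 818, 697 and 1348 at 1 day, at 345, 219, 378 and 224 at 7 days and at 846, 516, 260.0 and 467 at 14 days. These Ccl4 values overlap as well, and the uninjured mice alone span 31.1 to 2693 CPM. Neither passed at 1 day (edgeR log2 1.30, adjusted p 0.270 for Ccl3, range 0.000601 to 0.901; −0.17 and 0.968 for Ccl4, range 0.000906 to 1.00). Ccl7 had 0 UMIs in uninjured microglia and 139, 41.0 and 55.7 CPM at 1 day, at least 10.1-fold higher (37 UMIs; 4.66-fold without replicate 1 of WT uninjured), with an edgeR adjusted p of 0.0632 (range 0.000179 to 0.651, with no adjusted value from DESeq2). Microglial Cxcl10 had 0 UMIs without injury, 24.1, 83.2, 64.3 and 3.59 CPM at 7 days (at least 6.68-fold) and 1.43, 31.1, 18.6 and 0 at 14 days (at least 2.53-fold), of which replicate 2 of WT holds 51 of 83 and 47 of 78 UMIs. Without that mouse the bounds of Cxcl10 are 3.73 and 1.45, without replicate 1 of WT uninjured 3.08 and 1.16, and at 7 days without replicate 2 of cKO 11.2. Cxcl10 did not pass at 7 days (edgeR log2 7.65, adjusted p 0.535, range 0.000770 to 0.900). With 0 UMIs of Cxcl10 without injury that fitted value is no bound. Cxcl12 stayed at or below 55.4 CPM in microglia, Cxcl2 at or below 19.6, and Ccr2 had 14 UMIs at 14 days.

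At 1 day edgeR called 2 of 8 members in microglia (Ccl2 and Ccl12) beside 23 of 9268 genes (0.248%), with 5 members and 1279 genes at an unadjusted p under 0.05. At 7 days it called 1 (Cxcl16) beside 10 genes (0.108%), and at 14 days 1 (Cxcl16) beside 32 (0.345%). At these later time points p was under 0.05 before adjustment for 3 and 2 members and for 784 and 982 genes. DESeq2 called 2, 0 and 2 members beside 94, 37 and 68 genes at the 3 time points. At 1 day, Cluster 6 alone had 1 of 7 members called (Ccl12, log2 4.67, adjusted p 0.0321) beside 3 of 7394 genes (0.0406%). For Cluster 6 edgeR called 0 members at 7 and at 14 days beside 0% of genes each, with p under 0.05 before adjustment for 4 and 3 members and for 548 and 543 genes, and no other tool was run. Cluster 10 alone had 1 of 7 called at 1 day (Ccl2, log2 6.98, adjusted p 0.0202) beside 10 of 6788 genes (0.147%). Cluster 10 also had 1 called at 7 days (Ccl4, −2.65, adjusted p 0.0195) beside 48 genes (0.707%), and 1 at 14 days (Ccl12, −3.08, adjusted p 0.0316) beside 48 genes (0.707%).

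In Cluster 10, Ccl4 was at 117 and 2927 CPM in WT and 9931 in cKO without injury and at 385, 505, 669.9 and 611 at 7 days, so 2 of 3 uninjured mice lay above and 1 below all mice at 7 days. Ccl12 in Cluster 10 was at 38.9 (1 UMI) and 146 CPM in WT and 934 in cKO without injury, and at 29.6, 16.1, 26.6 and 46.2 at 14 days, where the groups overlap. At 1 day Ccl12 in Cluster 10 was at 1426, 719 and 2535 CPM, and the 719 lies below the uninjured cKO mouse, whose 22 UMIs are 95.5% in 1 cell. In Cluster 6, Ccl12 was at 51.7, 85.1 and 47.4 CPM without injury, at 2101, 656 and 1502 at 1 day and at 38.8, 49.9, 157 and 26.8 at 14 days. All mice at 1 day lay above all uninjured mice for Ccl12 in Cluster 6, where it was called, while in Cluster 10 they overlap and the fit did not pass (log2 2.39, adjusted p 0.116).

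All 8 microglia markers had UMIs in each of the 14 mice. They summed to 16818 and 14204 CPM in WT and 14119 in cKO without injury, to 8607, 10195 and 7107 at 1 day, to 10714, 10970.2, 11313 and 13288 at 7 days and to 7306, 10303, 10191 and 10108 at 14 days. The monocyte and macrophage markers in the same cells summed to 307, 714 and 345 CPM without injury (2, 4 and 1 of 10 genes with UMIs) and to 1719, 1272 and 520.4 at 1 day (5, 4 and 7 of 10). They summed to 4314, 3264, 3767 and 1116 CPM at 7 days and to 3153, 1746, 2549 and 2617 at 14 days, with Lyz2 the most abundant in all mice but cKO replicate 2 at 1 day, where it was Fn1, and Ly6c2 at 0 in all 14. Whether blood-derived macrophages in Clusters 6 and 10 contribute the Ccl2, Ccl12 or Cxcl16 of these sums was not tested.

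Immuno cells could be summed in 10 mice, with WT replicate 2 the only uninjured one, so injury could be compared in WT mice alone. Each such comparison sets 1 mouse of batch 1 against 1 mouse of batch 2, with the spread taken from other groups, and is no test of injury. Ccl2 was at 0 CPM in that mouse, at 3182 in WT and 2991 and 2445 in cKO at 1 day, at 362 in WT and 30.9 and 49.0 in cKO at 7 days, and at 0 in WT and 603 and 55.0 in cKO at 14 days. All 3 mice at 1 day lay above all other mice for Ccl2, at least 53.7-fold above uninjured when summed (512 UMIs). Ccl7 was at 0 CPM in that mouse (its 1 uninjured UMI lies in a mouse with too few Immuno cells), at 1472, 1382 and 1409.8 at 1 day, at 0, 0 and 9.18 at 7 days and at 63.6, 493 and 15.7 at 14 days, at least 28.8-fold higher at 1 day. Ccr2 was at 622 CPM without injury, at 358, 536 and 622 at 1 day, at 543, 92.8 and 823 at 7 days and at 191, 943 and 668 at 14 days. The Ccr2 groups overlap, with summed ratios of 0.920, 1.21 and 1.17. The ratio of Ccr2 at 7 days is 0.333 without replicate 2 of cKO, and at 14 days 0.921 without replicate 1 of cKO, so both turn direction. Ccl12 in Immuno cells was at 0 CPM in the uninjured mouse (2 further UMIs lie in uninjured mice with too few Immuno cells) and at 517, 141 and 112 at 1 day, and Cxcl2 at 0 and at 119, 367 and 479.9.

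In Immuno cells 7 members passed the low-count filter, and Cxcl10, Cxcl12 and Cxcl16 did not. At 1, 7 and 14 days edgeR called 0 of 7 members beside 0%, 0% and 0% of 1992 genes, with an unadjusted p under 0.05 for 2, 1 and 1 members and for 200, 141 and 155 genes. DESeq2 called 1, 0 and 0 members beside 7, 1 and 0 genes. With 1 mouse on each side, neither the calls nor their absence say anything about Ccl2 or the other members. Monocyte and macrophage markers of these cells summed to 14019.5 CPM without injury, 18537, 18620.4 and 20008 at 1 day, 13763, 38739 and 8900.2 at 7 days and 12457, 4588 and 9007 at 14 days, with Lyz2 the most abundant. Ly6c2 was at 0 in 3 mice. Antigen-presentation markers, led by Cd74, summed to 1867 CPM without injury, 3501, 4288 and 2557 at 1 day, 18924, 6621 and 14392 at 7 days and 24056, 33602 and 15547 at 14 days. The 3 B-cell markers summed to 1752 CPM in the uninjured mouse (3 of 3 found, led by Cd79a), to 39.8, 0 and 67.5 at 1 day (1, 0 and 2 of 3), to 0, 0 and 64.3 at 7 days (0, 0 and 2 of 3) and to 350, 34.0 and 409 at 14 days (2, 1 and 3 of 3), with Ms4a1 at 0 in every injured mouse but cKO replicate 2 at 14 days. The 6 T and NK markers summed to 606 CPM without injury (5 of 6 found, led by Gzma, Klrb1c at 0), to 0, 28.2 and 135 at 1 day (0, 1 and 3 of 6), to 181, 0 and 275 at 7 days (2, 0 and 6 of 6) and to 63.6, 144 and 550 at 14 days (2, 4 and 4 of 6). Whether the makeup of Immuno cells accounts for the Ccl2 and Ccl7 values was not tested.

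Myeloid cells (Cluster 16) had enough cells in 5 mice, where Cxcl2 was at 156 CPM in WT replicate 2 uninjured, at 655 (4 UMIs), 361 (2 UMIs) and 1380.0 at 1 day and at 1555 in cKO replicate 2 at 7 days. The single uninjured mouse was lowest for Cxcl2, with summed ratios of 7.83 (4.04 to 17.0) at 1 day, or 3.30 without replicate 2 of cKO, and 9.95 (5.36 to 20.9) at 7 days. All 8 neutrophil markers had UMIs in 3 of these mice and Mmp9 was at 0 in the other 2, and their sums ran from 50379 to 259225 CPM with S100a9 the most abundant. No fit was made for myeloid cells, pericytes or fibroblasts. Fibroblast Cxcl16 lay between 0 and 184 CPM, and the ratios rest on 1 uninjured mouse, WT replicate 2, with 3 UMIs in 10 cells (127 CPM). Another 3 uninjured UMIs lie in mice with too few fibroblasts. Against that mouse the summed Cxcl16 ratios were 0.491 (0.0956 to 3.16), 0.410 (0.133 to 2.05) and 0.867 (0.285 to 4.303) at the 3 time points.

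**Figure D4:**
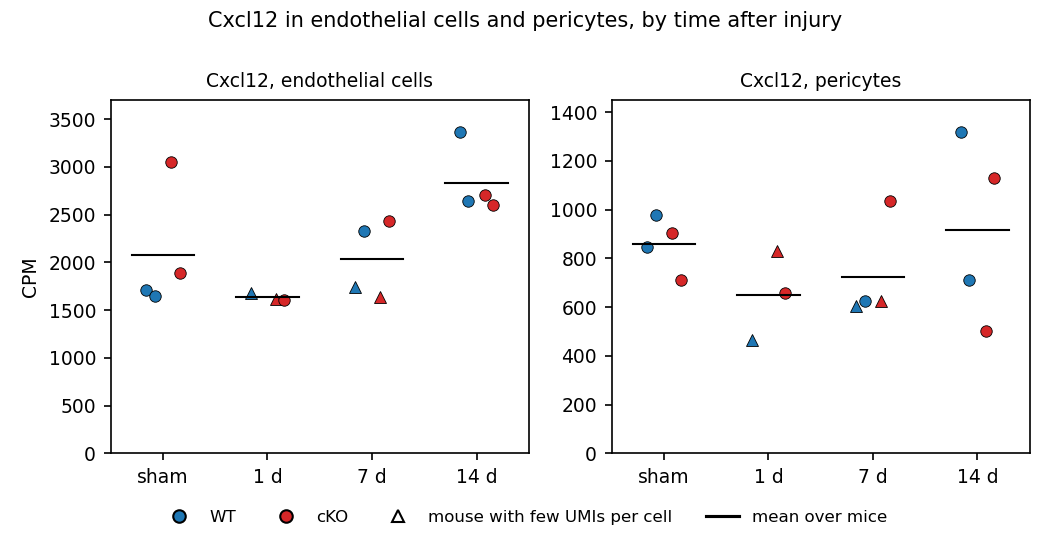
Cxcl12 in CPM in endothelial cells and pericytes of each mouse by time point, on a linear scale. Each point is 1 mouse, triangles are the shallow mice and bars are means; the 4 mice at 14 days are among the highest in endothelial cells.

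Endothelial Cxcl12 was at 1706 and 1648 CPM in WT and 3049 and 1894 in cKO without injury, and at 1677 in WT and 1611 and 1610.2 in cKO at 1 day. At 7 days Cxcl12 was at 1738 and 2324 CPM in WT and 1639 and 2429 in cKO, and at 14 days at 3366 and 2644 in WT and 2708 and 2604 in cKO. In CPM without the scaling factors, 3 of 4 uninjured mice lay below all mice at 14 days, and cKO replicate 1 uninjured lay among the latter. The factor was 0.782 in cKO replicate 2 uninjured (1894 CPM) and 1.08 in cKO replicate 2 at 14 days (2604 CPM). The order of these 2 mice on the scaled levels is unclear. The summed ratios were 0.891 (0.840 to 0.943), 1.26 (1.22 to 1.31) and 1.50 (1.45 to 1.55) at 1, 7 and 14 days. The edgeR fit gave −0.49 (adjusted p 0.922), −0.23 (0.802) and 0.27 (0.818). At 7 days the summed ratio and the fit thus point in opposite directions, and no direction is read. A sum gives deep mice more weight, and at 7 days the deeper replicates 2 had the higher Cxcl12. The fit also uses scaling factors (TMM), which were 0.762 and 0.782 in WT and cKO replicates 2 uninjured and 1.045 to 1.074 at 7 days. The part of each in this difference was not tested. Over the alternatives the lowest edgeR adjusted p of Cxcl12 was 0.230, 0.628 and 0.283 and the highest 1.00 each. Pericyte Cxcl12 was at 846 and 978 CPM in WT and 902 and 709.5 in cKO without injury, at 466, 829 and 656 at 1 day, at 605, 624, 626 and 1036 at 7 days and at 1318, 713, 503 and 1129 at 14 days. These values overlap, with a summed ratio of 0.771 (0.634 to 0.933) at 1 day. Leaving out single mice, the summed ratio at 7 days ran from 0.731 (without replicate 2 of cKO) to 1.16. At 14 days it ran from 0.942 to 1.17, so the direction turns at both.

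In endothelial cells 2 members (Cxcl10 and Cxcl12) passed the low-count filter. Endothelial Cxcl10 was at 0.972 CPM (1 UMI) in WT replicate 1 uninjured and at 45.5 (74 UMIs in 5 cells) in WT replicate 2 at 14 days, with the other 3 mice of that time point at 1.71, 0 and 3.95. At 1 day edgeR called 0 members beside 1 of 10985 genes (0.0091%), and at 7 and 14 days 0 members beside 0% and 0%. The unadjusted p was under 0.05 for 0, 0 and 1 members and for 572, 982 and 833 genes, and DESeq2 called 0 members at each. For endothelial cells the number of all genes called by DESeq2 is not given here, so its 0 is not set against a share. The 6 endothelial markers had UMIs in all 15 mice, summed to between 11408 and 17489 CPM (median 16167) and were led by Flt1.

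Among the members, Ccl2, Ccl7, Cxcl10 and Cxcl12 passed the filter in astrocytes. Astrocyte Cxcl10 was at 0 in the 4 uninjured mice and at 42.0 CPM (39 UMIs) in cKO replicate 2 at 1 day, with 0 in the 2 shallow mice, at least 24.4-fold higher when summed (15.1-fold without replicate 2 of either genotype uninjured). Astrocyte Ccl2 was at 0 without injury and at 33.6 (2 UMIs), 23.0 (1 UMI) and 14.0 CPM (13 UMIs) at 1 day, at least 10.03-fold higher, and Ccl7 at least 10.7-fold higher (17 UMIs). Without replicate 2 of WT uninjured these bounds are 6.19 and 6.58. The summed astrocyte Cxcl12 ratio, leaving out single mice, ran from 1.47 to 5.00 at 1 day, from 0.335 to 1.14 at 7 days and from 0.568 to 1.93 at 14 days. The highest value of each came without replicate 2 of cKO uninjured, which leaves 10 of the 39 uninjured UMIs of Cxcl12. At 7 and 14 days the direction turns without that mouse. Of the UMIs in cKO replicate 2 at 1 day, Clusters 5 and 7 hold 37 of 39 of Cxcl10, 8 of 13 of Ccl2 and 15 of 15 of Ccl7, and no fit was made without Cluster 2. Without injury Clusters 5 and 7 make up 125 of 136 and 312 of 581 astrocytes in WT, and 27 of 32 and 292 of 540 in cKO. At 1 day they make up 137 of 141 in WT, and 104 of 110 and 315 of 502 in cKO. The part of this difference in makeup was not tested. For astrocytes edgeR called 0 of 4 members at 1 day beside 9 of 11769 genes (0.0765%), and 0 at 7 and 14 days beside 0% and 0%. Unadjusted p values lay under 0.05 for 2, 0 and 0 members beside 667, 538 and 338 genes, and DESeq2 called 0 members at each. The fit at 1 day gave Ccl2 6.39 (edgeR adjusted p 0.476, range 0.0586 to 1.00) and Ccl7 6.34 (0.734, range 0.0591 to 1.00). With 0 UMIs without injury these fitted values are no bound. Ccl2 and Ccl7 have 16 and 17 astrocyte UMIs at 1 day and passed the low-count filter through that group. The fit and the unadjusted p values at 1 day are therefore no support for a rise. For astrocytes the number of all genes called by DESeq2 is not given here, so its 0 is not set against a share. All 7 astrocyte markers had UMIs in each mouse, led by Slc1a2, with sums from 9228 to 13720.3 CPM.

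The genotypes were compared as the mean over 1, 7 and 14 days, without the uninjured mice. In all cells edgeR called 0 of 10 members for cKO against WT beside 0% of genes, with an unadjusted p under 0.05 for 2 members and 477 genes, and DESeq2 called 0 members and 1 gene. The 2 members were Ccl7 (log2 2.13, p 0.0184, adjusted p 1.00, range 0.000984 to 1.00) and Cxcl2 (1.78, p 0.0462, adjusted p 1.00, range 0.00353 to 1.00). Ccl7 was 1.07 without replicate 1 of cKO at 14 days, and Cxcl2 was 0.58 without replicate 2 of cKO at 7 days. In microglia, 0 of 8 members were called by edgeR beside 0% of genes, with p under 0.05 before adjustment for 0 members and for 346 genes, and DESeq2 called 0 members and 0 genes. Endothelial cells had 0 of 2 called by edgeR beside 0%, astrocytes 0 of 4 beside 0% and Immuno cells 0 of 7 beside 0%, each with 0 members at an unadjusted p under 0.05 and 0 by DESeq2. In these 3 classes p was under 0.05 before adjustment for 311, 265 and 189 genes, and DESeq2 called 0, 1 and 0 genes. Cluster 6 had 0 of 7 called by edgeR beside 0% with p under 0.05 before adjustment for 1 member (Cxcl12, −3.52, p 0.0195) and 264 genes, and Cluster 10 had 0 of 7 beside 0% with 0 members and 218 genes so. In Immuno cells the WT side is only replicate 1 at each time point, shallow at 1 and 7 days, with the spread taken from cKO groups. The absence of calls there says nothing about genotype. For endothelial Cxcl12 the genotype value was −0.04 (edgeR adjusted p 1.00, range 0.998 to 1.00).

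Whether injury acts differently in the genotypes was tested at 3 time points in all cells, microglia, endothelial cells and astrocytes. For DESeq2 the number of all genes called in this test is not given here, so its member count is not set against a share. The edgeR interaction test called 0 of 72 member combinations beside 0 of 152508 tests (0%), with 13 and 4898 at an unadjusted p under 0.05 and 0 members called by DESeq2. The lowest unadjusted value was microglial Ccl3 at 14 days (log2 −3.90, p 0.000361, adjusted p 0.912), and it rests on 1 cKO uninjured mouse.

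Other chemokine genes were read beside the members. Of 29 other ligand genes 15 were tested in all cells, and edgeR called 0 at 1, 7 and 14 days, with 7, 7 and 3 at an unadjusted p under 0.05 and 3 (Pf4, Ccl9 and Ccl6), 2 (Ccl9 and Ccl6) and 1 (Ccl6) by DESeq2. Their median log2 change was 2.51, 1.71 and 1.10, beside −0.08, −0.00 and 0.01 for all genes and 3.08, 2.27 and 1.98 for the members. With genes at 0 in 1 group set to their bound, the ligand medians were 2.64 (1 gene at or below the floor in both groups left out), 0.68 and 0.55 (1 left out). Of 22 other receptor genes 12 were tested, with 0 called by edgeR at each time point, 2, 2 and 2 unadjusted, 0, 1 and 1 (Cx3cr1) by DESeq2 and medians of 0.04, 0.27 and 0.41. In microglia 6 other ligands and 6 other receptors were tested, with 0 called by edgeR and by DESeq2 at each time point and 3, 1 and 2 ligands and 1, 3 and 3 receptors unadjusted. The most abundant of these genes over all cells were Cx3cr1 (509.6 CPM, highest in Cluster 6 at 4324), Ccl6 (79.5, highest in Immuno cells at 933.6) and Cxcl14 (52.5, highest in Cluster 5 astrocytes at 299), chosen after the values were seen.

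Among 12 NF-kB feedback genes edgeR called 0 in all cells at 1, 7 and 14 days (2, 7 and 6 unadjusted, 0, 0 and 2 by DESeq2, Tnfaip3 and Tnf), with medians of 0.47, 0.96 and 0.89. Among 12 interferon-response genes such as Ifit1 and Isg15 it called 0 (0, 1 and 2 unadjusted, 0 by DESeq2 at each), with medians of 0.27, 0.05 and −0.21. In microglia 11 interferon-response genes were tested with 0 called by edgeR (2, 6 and 2 unadjusted, 1, 0 and 0 by DESeq2, Ifitm3), and medians of 2.38, 4.85 and 3.59 that were 1.35, 1.89 and 1.32 with genes at 0 set to their bound. The 12 NF-kB feedback genes in microglia had 0 called by edgeR and DESeq2 (2, 1 and 2 unadjusted) and medians of −1.07, 0.36 and 0.46, beside 0.02, 0.17 and 0.18 for all genes. Members in microglia had medians of 3.57, 1.56 and 0.27, or 3.38, 0.06 and 0.54 at the bound.

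Across the 17 clusters, 14613 genes were searched for levels like those of each member (Pearson r of log2 mean CPM with 10 added), as a description only. Ccl2 was closest to Ifi207 (0.961), Ccl7 (0.954) and Cebpb (0.9497), and Ccl12 to Tlr7 (0.986), Aif1 (0.985) and Bach2os (0.982). Ccl3 and Ccl4 were closest to each other (0.995), followed for both by Bcl2a1a (0.987) and Clec7a (0.987 and 0.976). Cxcl2 was closest to Mirt1 (0.993), Cd300ld (0.989) and Slfn1 (0.989), and Cxcl12 to Adgrf5 (0.975), Lsr (0.965) and Car4 (0.964). Cxcl16 lay closest to Gm7618 (0.939), Zfp991 (0.914) and Grn (0.910), and Ccr2 to Stap1 (0.989), Napsa (0.989) and Cytip (0.983). Ccl7 and Cxcl10 had under 500 UMIs and were not searched. In single cells of Cluster 10, 157 of 812 had both Ccl3 (227 cells) and Ccl4 (216), and among 288 Immuno cells 40 had both Ccl2 (81) and Ccl7 (44). Of 2128 microglia, 63 had both Ccl2 (118) and Ccl12 (304).

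On build mm10 (GENCODE vM21), 6 members lie on chromosome 11. Ccl2 lies at 82035571 to 82037453, Ccl7 at 82045712 to 82047525 and Ccl12 at 82101845 to 82103400, all on the plus strand, with 8258 bases and no gene between Ccl2 and Ccl7 and 54319 bases and Ccl11 between Ccl7 and Ccl12. Ccl3 (83647844 to 83649355, minus) and Ccl4 (83662584 to 83664683, plus) are 13228 bases apart with no gene between, and Cxcl16 lies at 70453983 to 70459984 (minus). Cxcl2 (90903871 to 90905938, plus) and Cxcl10 (92346638 to 92348889, minus) lie on chromosome 5, Cxcl12 on chromosome 6 (117168535 to 117181367, plus) and Ccr2 on chromosome 9 (124101950 to 124113557, plus). Ccl2 overlaps Gm17268, Cxcl10 overlaps Art3 and Cxcl16 overlaps Zmynd15, each on the other strand. The sources used here do not give the strand use of the counting, so reads in these overlaps, and reads shared among the similar Ccl2, Ccl7 and Ccl12 transcripts, are uncertain.

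Promoter sequence up to 250 bases upstream (RefSeq, build GRCm38.p6) was matched for 6 of the 10 members, and none was found for Ccl2, Ccl4, Ccl7 and Cxcl16. The NF-kB motif GGGANNTTCC, read on both strands, was present in Cxcl2 and Cxcl10, 2 of 6 members, beside 397 of 32851 promoters (1.21%). The interferon motif GAAANNGAAA was present in Cxcl10, 1 of 6, beside 978 promoters (2.98%). Ccl3, Ccl12, Cxcl12 and Ccr2 (17 bases of it before the gene start) had neither. In Cxcl2 (chr5:90903649-90903870, GRCm38.p6, plus strand, 222 bases) the match lies 69 to 60 bases before the gene start of the annotation, with an overlapping match on the other strand at 68 to 59.
Cxcl2: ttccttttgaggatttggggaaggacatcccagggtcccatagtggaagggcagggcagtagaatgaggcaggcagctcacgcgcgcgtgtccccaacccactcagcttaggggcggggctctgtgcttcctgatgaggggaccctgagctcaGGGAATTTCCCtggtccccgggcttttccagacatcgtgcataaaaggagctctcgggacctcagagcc
In Cxcl10 (chr5:92348890-92349139, GRCm38.p6, minus strand, 250 bases) the NF-kB match lies 159 to 150 and the interferon match 213 to 204 bases before the start, shown in capitals. A match describes the sequence only, and use of the sites was not tested.
Cxcl10: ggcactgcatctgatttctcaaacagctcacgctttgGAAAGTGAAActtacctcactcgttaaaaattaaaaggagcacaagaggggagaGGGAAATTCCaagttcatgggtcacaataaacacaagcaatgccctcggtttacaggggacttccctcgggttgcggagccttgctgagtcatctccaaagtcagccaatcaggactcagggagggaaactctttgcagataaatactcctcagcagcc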

How the data were processed

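The authors deposited raw UMI counts made with Cell Ranger (its version is not given in the sources used here) on an mm10 (GRCm38) reference, filtered cells in Seurat under R 4.1.2, and joined the libraries by Harmony. Their deposited cell table also holds the percent of mitochondrial UMIs of each cell, computed by the authors, with clusters, batch and condition. The UMI sums of the matrix equal that table in 18203 of 18203 cells, and 41193 symbols have at least 1 count. No doublets were removed here, and how the authors treated them is not stated. The members and the lists were chosen with earlier results of these data known.

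Conditions came from the sample titles. Counts were summed per mouse and class, for mice with at least 50 cells and at least 10 in the class, which left 15 mice with 536263 to 9008729 UMIs (median 3032957) and 208 to 1845 cells. Classes were all cells, microglia (Clusters 6 and 10), endothelial cells, astrocytes and Immuno cells, with Clusters 6 and 10 alone added later. Sums were fitted with edgeR 4.0.16 (limma 3.58.1) in R 4.3.3 with TMM scaling, filterByExpr and group means, and called at a Benjamini-Hochberg adjusted p under 0.05 over all genes of a comparison. Comparisons were 1, 7 and 14 days against uninjured over both genotypes, cKO against WT as the mean over these 3 time points, and the interactions. The injury comparisons share the uninjured mice and are not independent. DESeq2 1.42.0 was the other tool. Pooled folds are ratios of summed CPM, with a floor of 3 counts where a group has 0. The other lists were chemokine ligands, chemokine receptors, NF-kB feedback genes, interferon-response genes and cell type markers. Of the other chemokine genes, those called and the 3 most abundant were to be named, as were the 3 genes closest to each member across clusters. Some genes called in all cells at 1 day, and list genes called by DESeq2, were named after the values were seen. Some single genes are not reported here. Other work used Python 3.11.15 with numpy 2.4.6, scipy 1.17.1, pandas 2.3.3 and matplotlib 3.10.9.

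Batch in the cell table matches the replicate number in 16 of 16 mice, so the numbers pair mice by batch. As a check, replicate differences were correlated between conditions: the median r was 0.128 in all cells (11 of 21 pairs above 0.1), 0.0464 in microglia (6 of 15) and 0.0647 in endothelial cells (10 of 21).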

Additional observations from a re-analysis of the deposited data

Results flagged for a closer look

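In 44 groups of 4 mice with at least 30 UMIs of a gene, both genotypes together, the gap between the outermost mouse and the next was compared with the range of the group, and 10 groups had a mouse that stood apart. With this rule chance flags about 1 in 20 groups if values are normally distributed, which values carried by few cells are not.

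At 14 days, replicate 1 of cKO was highest in all cells for Ccl2 (16.3 CPM, next 3.99; 107 UMIs in 20 cells, 58.9% in 1 cell), for Ccl7 (9.30 CPM, next 0.651; 61 UMIs in 4 cells, 95.1% in 1 cell) and for Ccl12 (26.8 CPM, next 7.81; 176 UMIs in 30 cells, 22.2% in 1 cell). The same mouse was highest for Ccl12 in microglia (78.0 CPM, next 37.6; 126 UMIs in 25 cells). At 7 days, replicate 2 of cKO was highest in all cells for Ccl7 (6.88 CPM, next 1.62; 62 UMIs in 11 cells, 64.5% in 1 cell) and for Cxcl2 (56.9 CPM, next 4.62; 513 UMIs in 28 cells, 22.6% in 1 cell). Among uninjured mice, replicate 2 of WT was highest for Ccr2 (18.9 CPM, next 1.02; 40 UMIs in 10 cells). At 14 days, replicate 2 of WT was highest for Cxcl16 in microglia (197 CPM, next 134; 298 UMIs in 71 cells) and for Cxcl10 in endothelial cells (45.5 CPM, next 3.95; 74 UMIs in 5 cells, 89.2% in 1 cell). Replicate 1 of WT was highest for Cxcl12 in endothelial cells (3366 CPM, next 2708; 1973 UMIs in 148 cells).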

How the results depend on the processing

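For 40 results, 861 alternatives were fitted, 508 of them leaving out 1 mouse, and 718 gave the same label. Batch alone, cells without shared barcodes, and Cluster 6 or 10 alone were added after the data were seen. In Immuno cells, at least 30 cells per mouse, cKO mice alone, and either batch alone could not be fitted.

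Members called after injury in all cells, 2 in the fit above, were 5 with DESeq2, 21 with no filter on low counts, 4 with a replicate block, 0 with the conditions of the cell names, 0 without the 4 shallow mice, 0 in WT mice alone, 1 in cKO mice alone, 12 within batch 1, 4 within batch 2, and 1 to 5 leaving out single mice. In microglia, 4 calls became 8 with no filter, 0 with the cell names, 1 without the shallow mice, 2 in WT alone, 0 in cKO alone, 8 within batch 1, 7 within batch 2, 1 in Cluster 6 alone, and 2 to 4 leaving out single mice. Within batch 2 and without the shallow mice the time point of 1 day is 1 mouse, in WT alone it is another, and uninjured microglia of batch 1 are 1 mouse. Such a lone mouse is assumed to vary like those of other groups, and counts that include it are weak. Endothelial cells went from 0 to 1 within batch 2 (Cxcl10 at 14 days, 7.66, edgeR adjusted p 0.0301). Astrocytes went from 0 to 2 within batch 2, with Cxcl12 at 7 days (−2.17, 0.00915) and Cxcl10 at 1 day. The latter is 1 mouse with 39 UMIs in 7 cells and is no replicated call. For Cxcl12, leaving out replicate 2 of cKO uninjured leaves 10 of 39 uninjured astrocyte UMIs. The summed ratio at 7 days over both batches is then 1.14, so its direction turns. Immuno cells went from 0 to 1 with DESeq2 and 2 with no filter, all with 1 mouse on each side. For cKO against WT in all cells, 0 calls became 2 with no filter. Calls for injury differing between genotypes went from 0 to 9 with no filter and were 0 to 1 leaving out single mice (1 without WT uninjured replicate 2). The replicate block made Cxcl16 in all cells pass at 7 days (edgeR adjusted p 0.0359) and 14 days (0.0376) and changed no other call. Counts of all genes called are not given for most of these alternatives. The member counts therefore do not show whether members were called more often than other genes.

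Among fitted fold changes the sign reversed in 22 alternatives. Microglial Ccl3 at 1 day became −0.76 without the shallow mice and −0.60 in cKO alone, and ran from −0.57 to 3.19 leaving out single mice. Microglial Ccl4 at 1 day became 0.0437 with the replicate block, 0.24 with the animal number series, 2.20 with the cell names, 1.06 in WT alone, 4.49 within batch 1 and 6.68 in Cluster 6 alone, and ran from −1.38 to 1.58 leaving out single mice. Microglial Ccl12 at 14 days became 0.33 within batch 1 and 0.19 in Cluster 6 alone. Endothelial Cxcl12 at 7 days became 0.0028 with the cell names, 0.0111 without the shallow mice and 0.0469 within batch 2, and at 14 days −0.0720 in cKO alone. Its cKO against WT value became 0.12 without cells of shared barcodes and ran from −0.15 to 0.0483 leaving out single mice. Of the levels compared between clusters, the log2 ratio of Ccl12 in Cluster 10 over Cluster 6 (0.19, within its spread) became −0.09 with at least 30 cells and −0.05 without replicate 2 of cKO uninjured. Of the other single results, 20 leave-one-out and 31 further alternatives were weaker, and 5 and 26 stronger. The cause was not tested.

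The time point of 1 day rests on 3 mice, 2 of them shallow, and WT has 1 mouse there. Batch equals the replicate number, and 6 of the 8 mice of batch 2 have differing cell names (not cKO at 1 and 7 days), so the parts of batch and names were not separated. Uninjured microglia come from 3 mice and Immuno cells from 1, so folds there rest on few UMIs. Low depth limits what can be seen of Ccl7, Cxcl2, Cxcl10 and Ccr2 in particular: 0 UMIs in a class is no absence. RNA levels say nothing of secreted protein, and no protein was measured. The Ryk counts of the genotypes overlap.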
